A study of Homo sapiens with 6 samples.

Results

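The albumin gene family is a set of related genes for carrier proteins of blood plasma, and its human members ALB, AFP, AFM and GC lie on chromosome 4. The 4 genes were taken by symbol from a table of 23368 distinct genes, and each symbol was found. They were selected on family membership with the difference between shCHROME and EV normalized counts already examined, so that difference is given as a description, without a test. Expression was measured by RNA sequencing in HepG2 cells, a line established from a human liver cancer. Cells of the first group, shCHROME, stably expressed a short hairpin RNA against all variants of the long noncoding RNA CHROME (3 libraries, a, b and c). Cells of the second, EV, carried a non-targeting hairpin in the same pLKO vector, delivered in the same way by lentivirus made in HEK293T cells (3 libraries, a, b and c). One hairpin construct is named for each group, and CHROME itself is not analysed here.

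Albumin, encoded by ALB, is the most abundant protein of adult plasma; it is made by hepatocytes, holds the oncotic pressure of blood, and carries fatty acids, bilirubin, hormones and drugs. Alpha-fetoprotein, encoded by AFP, is its fetal counterpart: it is made by the yolk sac and fetal liver, is silenced around birth and often returns in liver cancer. Afamin, encoded by AFM, binds vitamin E and keeps the lipid-modified Wnt proteins in solution. The GC product, vitamin D binding protein, carries vitamin D metabolites and scavenges actin released by damaged cells. The genes arose by duplication, and ALB, AFP and AFM stand side by side, while GC lies before them on the same chromosome arm, with other genes between.

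The promoters of the 3 clustered genes are shown because liver-enriched factors such as C/EBP and FOXA are known to act on promoters of this family. Each line gives the 250 bases before the RefSeq transcription start on the plus strand of GRCh38.p14, in lower case, with matches to the C/EBP motif TTGCNNAA and the TATAAA box in capitals. The ALB window is chr4:73404037-73404286, the AFP window chr4:73435971-73436220 and the AFM window chr4:73481495-73481744.
ALB: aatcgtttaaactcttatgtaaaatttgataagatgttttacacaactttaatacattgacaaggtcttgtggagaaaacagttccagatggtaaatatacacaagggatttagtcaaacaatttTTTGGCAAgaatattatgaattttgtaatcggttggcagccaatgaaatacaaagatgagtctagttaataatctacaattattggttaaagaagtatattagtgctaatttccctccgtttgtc
AFP: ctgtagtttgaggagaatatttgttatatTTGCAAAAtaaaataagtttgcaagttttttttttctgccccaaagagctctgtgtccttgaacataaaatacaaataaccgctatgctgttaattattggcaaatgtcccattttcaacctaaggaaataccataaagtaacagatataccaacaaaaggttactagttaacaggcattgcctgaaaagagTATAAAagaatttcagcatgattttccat
AFM: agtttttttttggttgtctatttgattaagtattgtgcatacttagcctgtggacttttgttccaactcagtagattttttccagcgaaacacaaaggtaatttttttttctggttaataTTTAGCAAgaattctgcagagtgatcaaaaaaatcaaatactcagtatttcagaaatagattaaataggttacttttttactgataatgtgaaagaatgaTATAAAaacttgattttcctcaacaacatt

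Motifs were searched on both strands without mismatches, and no match overlapped another of a different motif. The C/EBP motif, which 9.05% of 35116 RefSeq promoter windows of this length hold, was found once in each of the 3 promoters. The match lay 125 to 118 bases before the start in ALB, 221 to 214 bases before it in AFP and 130 to 123 bases before it in AFM, on the plus strand in AFP and on the minus strand in the other genes. A TATAAA box, held by 10.7% of the windows, lay 29 to 24 bases before the start of AFP and 30 to 25 bases before that of AFM, and was not found in this form in ALB. The box CCAAT, held by 32% of the windows, was found at 2 places in ALB, on opposite strands, and at 1 in AFP. The FOXA motif TGTTTAC, held by 2.98%, was not found in these windows. The 3 windows had 30%, 31.6% and 28% G and C in ALB, AFP and AFM, against a median of 58% over all windows.

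Whole reads could be recovered from the deposited values, and totals were 29477352 to 33911426 reads in shCHROME libraries and 29188213 to 35429420 in EV libraries. All values below are normalized counts, that is reads divided by the size factor of the library, unless another unit is given. Hepatocyte markers were present, all 13 of them passing the filter on low values, with a summed level of 660693 to 778723 in shCHROME and 760287 to 821724 in EV libraries; 5 of them fell and TAT alone rose in the test given below, which called 6.87% of all 14598 genes tested lower and 3.64% higher. Of 10 kidney and packaging cell markers, 5 had no read in any library and only CDH2 and HOXD10 passed the filter, with a summed level of 2625 to 2787 in shCHROME and 3108 to 3252 in EV libraries, nearly all of it from CDH2, which fell. Of 10 blood, endothelial and stellate cell markers, 7 passed the filter, and the summed level of the list was 8247 to 9457 in shCHROME and 7774 to 8018 in EV libraries. The leukocyte antigen PTPRC, the globin HBB and the collagen COL1A1 did not pass it, with 3 reads or fewer each over all 6 libraries. Among those that passed, lysozyme, LYZ, had 17629 reads over the shCHROME and 14304 over the EV libraries. LYZ rose and the receptor PDGFRB fell. The list as a whole does not show that these cell types were absent. The call was lost for TAT without shCHROME c or EV b (limma adjusted p of 0.0974 and 0.0886) and for CDH2 without shCHROME c, EV a or EV c (0.0571 to 0.0880). It was lost for SERPINA1, TF and APOH without EV c (0.0507 to 0.0598). Without shCHROME c it was also lost for SERPINA1 (0.0501) and TF (0.0573), and without EV b for APOH (0.0620). LYZ lost its call without shCHROME a, shCHROME c or EV c (0.0534 to 0.0613). The part of these markers in the differences below was not tested.

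Within HepG2 the family spanned more than 5 orders of magnitude. Per kilobase of the longest coding transcript, ALB stood at 256310.3 ± 24102 normalized counts in shCHROME and 319398 ± 12534 in EV libraries (SD, n = 3 each here and below). AFP followed with 9005 ± 889 per kilobase in shCHROME and 16454 ± 350 in EV libraries. GC had 17.0 ± 8.001 per kilobase in shCHROME and 3.05 ± 0.422 in EV libraries, and AFM had 2.53 ± 2.30 and 0.870 ± 1.14. The order ALB, AFP, GC, AFM was therefore the same in both groups, and within a group no library of a gene overlapped the next gene in the order. GC and AFM rested on few reads, and across groups they did overlap: AFM in shCHROME c, at 5.16 per kilobase, was above GC in all EV libraries (2.78 to 3.53). ALB was the second most abundant gene in every library, after the elongation factor EEF1A1, and AFP ranked between 70 and 150, whereas GC ranked between 12340 and 15107 and AFM between 14405 and 17569. The longest run of identical bases between any pair of the 4 transcripts was 14 bases, short beside reads of 50 bases.

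ALB was lower in shCHROME libraries. It had 531174, 570039 and 638878 normalized counts in shCHROME a, b and c, against 713965, 699902 and 754529 in EV a, b and c. All shCHROME libraries lay below all EV libraries, with shCHROME c the closest at 88.4% of the EV mean and shCHROME a the farthest at 73.5%. The means were 580030.3 ± 54543 in shCHROME and 722799 ± 28364 in EV libraries, a log2 difference of -0.32 (SE 0.09), or 1.25-fold lower. In bulk RNA, fewer cells with a transcript and less of it per cell cannot be told apart. The gene is so abundant that this modest ratio was a large difference in reads: the difference of the means, shCHROME minus EV, was -142769 normalized counts. Among the 10 most abundant genes, named here by rank alone, the groups did not overlap in ALB, the protease inhibitor A2M (log2 difference -0.52), fibronectin FN1 (-0.23) and the elongation factor EEF2 (-0.09), against 28% of all genes tested without overlap. They overlapped in EEF1A1 (0.00), RPPH1 (0.02), APOB (-0.04), C3 (-0.14), RMRP (0.00) and FTL (0.08).

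AFP was lower by a larger ratio. It had 20819.5, 21391 and 24897 normalized counts in shCHROME a, b and c, against 41009.8, 39944 and 41665 in EV a, b and c. The highest shCHROME library, c, stood at 60.9% of the EV mean and the lowest, a, at 50.9%, while EV libraries lay between 97.7% and 101.9% of it. The means were 22369 ± 2208 in shCHROME and 40872.8 ± 869 in EV libraries, a log2 difference of -0.87 (SE 0.06), or 1.83-fold lower. Of the 14598 genes tested, 165 had a more negative log2 difference than AFP and 1175 a more negative one than ALB.

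**Figure D1:**
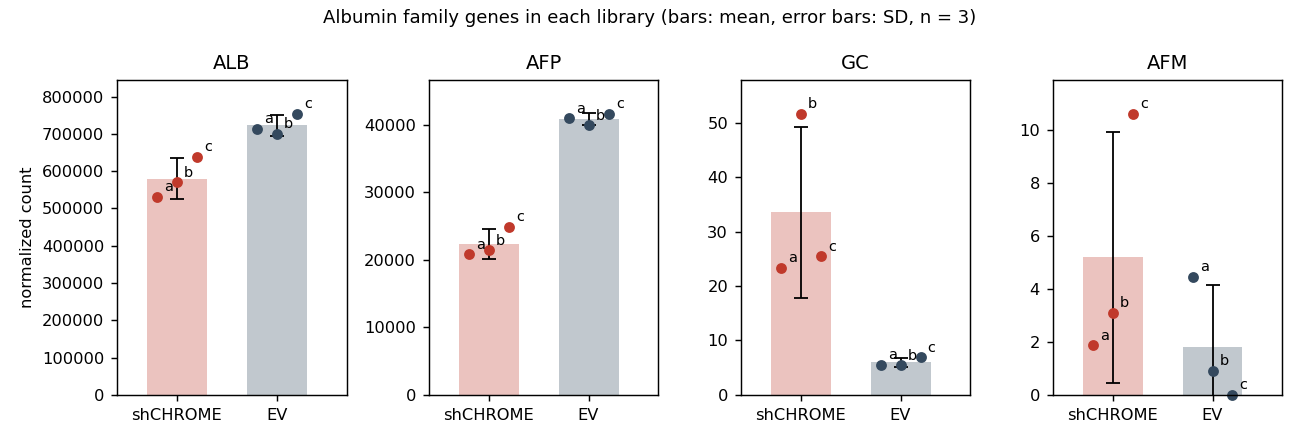
Normalized count (vertical axes, linear from 0, a separate scale for each gene) of ALB, AFP, GC and AFM in the shCHROME and EV libraries; points are libraries a, b and c, bars are means and error bars are SD. ALB and AFP are lower and GC is higher in every shCHROME library than in any EV library, while the groups overlap in AFM.

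AFP and ALB moved together between shCHROME libraries. On the log2 scale the SD over the 3 shCHROME libraries was 0.13 for ALB and 0.14 for AFP, but that of their ratio was 0.03. Most of the spread in these libraries was therefore common to both genes. Over the 3 EV libraries the SD was 0.06 for ALB, 0.03 for AFP and 0.03 for their ratio. There the ratio spread about as much as AFP alone. There were 39.2, 37.5 and 39.0 AFP reads per 1000 ALB reads in shCHROME a, b and c, against 57.4, 57.1 and 55.2 in EV a, b and c. This ratio averaged 38.6 ± 0.906 in shCHROME and 56.6 ± 1.19 in EV libraries, and no exact binomial 95% bound lay more than 0.607 from its value, counting error only. The ratio does not depend on how libraries were scaled. Together the 4 genes took 1.92 ± 0.188% of all reads in shCHROME and 2.35 ± 0.0929% in EV libraries.

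**Figure D2:**
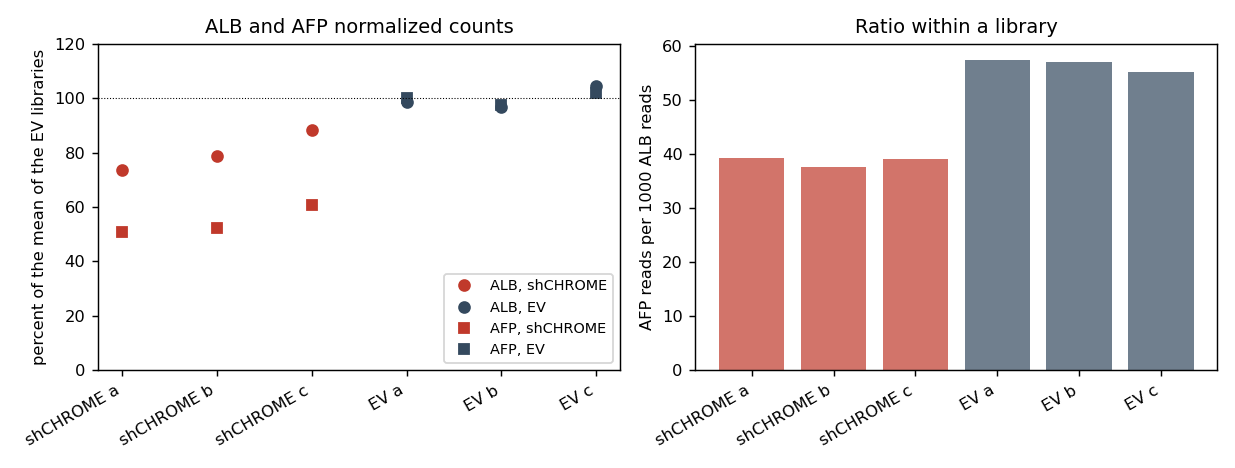
Left, normalized counts of ALB (circles) and AFP (squares) in each library as a percentage of the mean of the EV libraries; right, AFP reads per 1000 ALB reads in each library, shCHROME in red and EV in dark grey. ALB and AFP are both highest in library c among the shCHROME libraries, and the ratio lies between 37.5 and 39.2 in shCHROME and between 55.2 and 57.4 in EV libraries.

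GC stood the other way. It had 23.4, 51.7 and 25.5 normalized counts in shCHROME a, b and c, against 5.57, 5.48 and 6.97 in EV a, b and c. Every shCHROME library was above every EV library, and shCHROME b alone was about 2 times as high as the other shCHROME libraries. The means were 33.5 ± 15.8 in shCHROME and 6.01 ± 0.833 in EV libraries. On the log2(value + 1) scale, which understates the change of a low gene, the difference was 2.22 (SE 0.39), or 4.64-fold. Of the 14598 genes, 5 had a larger positive difference. GC passed the filter on low values only through the shCHROME libraries, where it was high, as EV a, b and c held 5, 6 and 7 reads. Its place among the genes tested is therefore a description and no support for the difference. The GC values rest on 99 reads in shCHROME (exact Poisson 95% interval 80.5 to 120.5) and 18 in EV libraries (10.7 to 28.5). The ratio of read shares was 5.72 with an exact interval of 3.44 to 10.1, counting error only. Without shCHROME b the log2 difference was 1.86.

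AFM was at the limit of detection. It had 1.87, 3.10 and 10.6 normalized counts in shCHROME a, b and c, against 4.46, 0.914 and 0 in EV a, b and c, and the groups overlapped. In reads this was 15 over the shCHROME libraries (exact Poisson 95% interval 8.39 to 24.7) and 5 over the EV libraries (1.62 to 11.7). Of the 15 reads, 10 came from shCHROME c. The ratio of read shares was 3.12 with an exact interval of 1.08 to 11.0, which takes in counting error but not the spread between libraries. The log2 difference of 1.24 (SE 0.62, from the fit without a filter) was 0.65 without shCHROME c, 0.67 without EV c and 1.90 without EV a. A low value here does not show that AFM or GC is silent in HepG2.

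The comparison over all genes used limma on log2(value + 1) with Benjamini-Hochberg adjustment, and called a gene at an adjusted p under 0.05. AFM did not pass the filter on low values. Over all 14598 genes it called 10.5%, with 3.64% higher and 6.87% lower, and the groups did not overlap in 28% of genes. Since the members were proposed from this contrast, no call is given for them. In the authors' deposited table the log2 fold changes were -0.29 for ALB, -0.78 for AFP, 0.43 for GC and 0.08 for AFM. The signs are those found here, but the deposited fold changes are much smaller for both low genes. The authors' deposited means were 0.89, 0.88, 0.87 and 1.06 times the mean of the 6 libraries for ALB, AFP, GC and AFM. Those means are therefore not the plain means of the values used here, and the shared signs are no like-for-like check. No source used here gives how the authors made the deposited values. Whether separate cultures were used is not stated, so spread and p-values are those of these libraries, which may be technical.

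**Figure D3:**
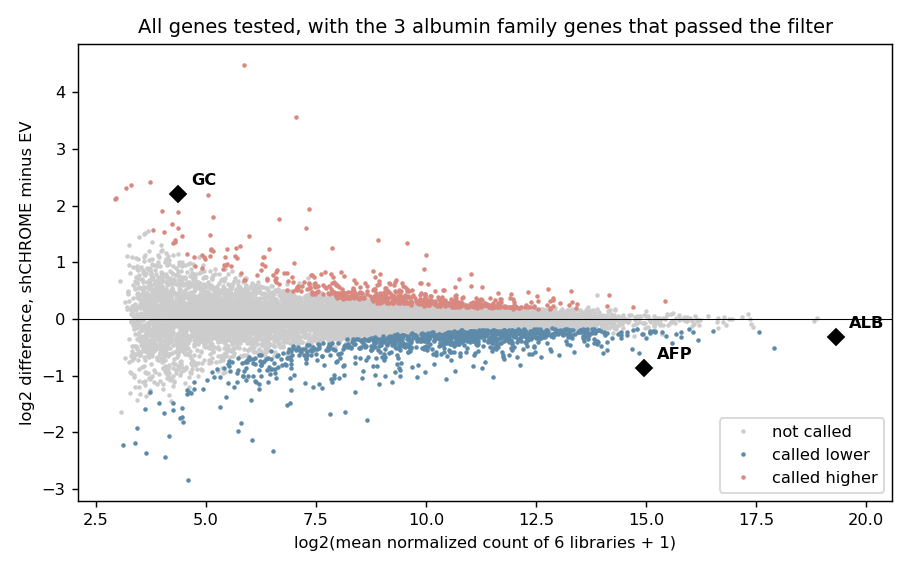
Log2 difference, shCHROME minus EV, against the log2 of the mean normalized count of the 6 libraries, for the 14598 genes tested; blue and red points were called lower and higher, and black diamonds mark the 3 members that passed the filter. ALB lies at the far right just below 0, AFP below it at -0.87, and GC at the upper left at 2.22.

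Along chromosome 4, none of the 7 listed neighbours that could be tested was called, and with so few genes nothing is read from that. In RefSeq order, GC lies between the bicarbonate cotransporter gene SLC4A4 and NPFFR2, and the ALB, AFP and AFM cluster between ANKRD17 and RASSF6, with the CXC chemokine genes beyond. Neither gene beside GC passed the filter. SLC4A4 had 4 reads over the shCHROME and 9 over the EV libraries, and NPFFR2 had 14 in each group. Of 19 listed neighbours, 7 passed the filter and 0 were called in either direction, against 10.5% of all genes; the median log2 difference of the 7 was 0.05, against 0.01 over all genes. ANKRD17, the gene next to ALB, had 5243 ± 235 normalized counts in shCHROME and 5288 ± 430 in EV libraries, a log2 difference of -0.01 with a 95% interval of -0.15 to 0.13. COX18, a mitochondrial assembly factor gene on the same side, had 544 ± 13.0 in shCHROME and 489 ± 14.5 in EV libraries (0.15, -0.03 to 0.34). RASSF6, next to AFM, had 38 reads over the shCHROME and 49 over the EV libraries, with a wide interval of -1.35 to 0.41 around -0.47. The chemokine gene CXCL8 had a log2 difference of 0.45 (0.02 to 0.88; adjusted p = 0.187 in the limma fit). CXCL2 (0.18), MTHFD2L (0.05) and EREG (-0.45) did not pass the test either. The groups did not overlap in COX18 and EREG, against 28% of all genes tested without overlap. The 95% intervals do not exclude decreases as large as that of ALB for RASSF6, CXCL2 (-0.68 to 1.05) and EREG (-0.92 to 0.03).

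**Figure D4:**
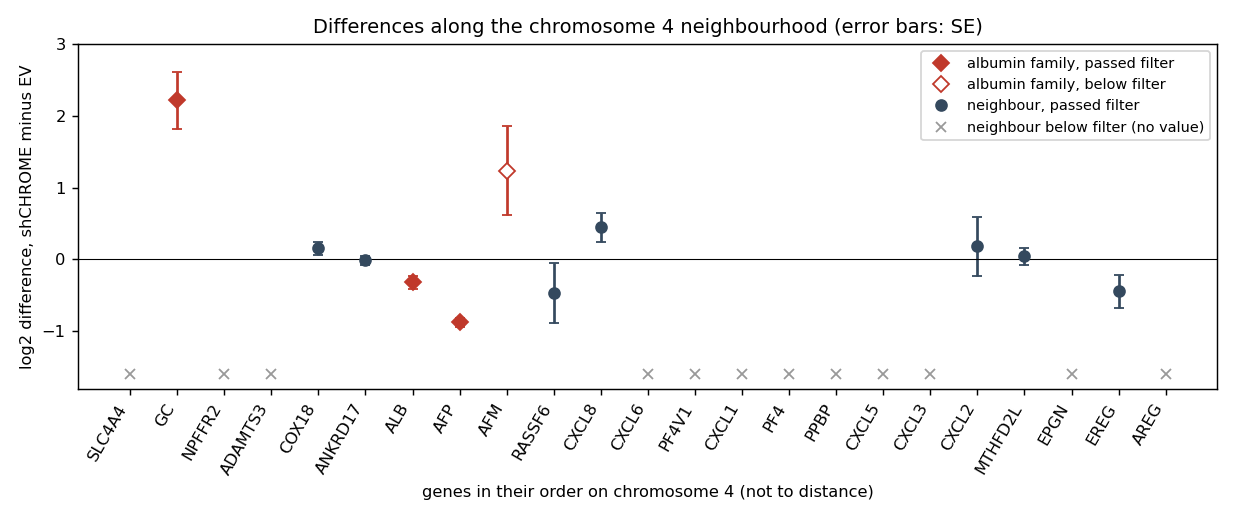
Log2 difference, shCHROME minus EV (vertical axis, error bars SE), for genes in their order on chromosome 4; distances are not to scale. Diamonds are the albumin family, open where the gene was below the filter, circles are neighbours that passed the filter, and crosses at the bottom are neighbours without a tested value. ANKRD17 next to ALB sits at -0.01, while ALB and AFP lie at -0.32 and -0.87 and GC at 2.22.

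Transcription factors known to act on ALB or AFP were called about as often as all genes. Of 34 listed, 32 passed the filter, 2 rose, 2 fell and 28 were not called, against 3.64% of all genes called higher and 6.87% lower, and their median log2 difference was 0.00, against 0.01 over all genes. The nuclear receptor RXRA, a partner of several lipid-sensing receptors, fell to 4243 ± 244 normalized counts in shCHROME, against 5660.1 ± 179 in EV libraries (log2 difference -0.42, adjusted p = 0.000158). TBX3, a T-box factor of the fetal liver, fell by 0.27 on the log2 scale (adjusted p = 0.00743, and 0.0541 without EV c). NR5A2, a nuclear receptor also called fetoprotein transcription factor because it binds AFP, was low, with 13.1, 11.4 and 19.1 normalized counts in shCHROME a, b and c, against 2.23, 0 and 6.97 in EV a, b and c. It rose, with a log2 difference of 2.36 (limma adjusted p = 0.0269), on 43 reads in shCHROME and 9 in EV libraries. NR5A2 passed the filter on low values only through the shCHROME libraries, where it was high, so the call gives no support beyond the values. That call was lost without any 1 library other than EV c, with an adjusted p of 0.0519 to 0.152 where it was lost, and NR5A2 was below the filter of 1 CPM in 3 libraries. ONECUT1, a hepatocyte factor also known as HNF6, rose by 0.57 (adjusted p = 0.0228), but its call was lost without shCHROME b, shCHROME c, EV a or EV b, with an adjusted p of 0.0725 to 0.136.

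Several other known activators and repressors were not called. Apart from HLF and CEBPB, the most abundant of the list, these were named for their roles after their values were seen. They therefore do not stand for the list, in which NR5A2 and ONECUT1 were called higher and RXRA and TBX3 lower. HNF4A, the master regulator of hepatocyte genes, had 6825 ± 447 normalized counts in shCHROME and 6957 ± 333 in EV libraries, a log2 difference of -0.03 (95% interval -0.16 to 0.10). CEBPA, an activator of ALB, had 5978 ± 473 in shCHROME and 6750 ± 23.5 in EV libraries, with no overlap of the groups. Its log2 difference was -0.18 (95% interval -0.30 to -0.05), with a limma adjusted p of 0.0684. CEBPB had a difference of -0.01 and HLF, a PAR-type leucine zipper factor, of -0.10. Of the repressors of AFP, which are known from mice, ZHX2 differed by 0.06 (-0.10 to 0.21) and ZBTB20 by 0.03 (-0.21 to 0.26). ZFHX3, which represses AFP in liver cancer cells, differed by 0.05 (-0.19 to 0.30).

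Other oncofetal liver genes moved in both directions. Of 16 listed, 15 passed the filter; 3 of them rose, 2 fell and 10 were not called, against 3.64% of all genes called higher and 6.87% lower, and the median log2 difference was 0.05, against 0.01. The fetal growth factor IGF2 had 464, 739 and 509 normalized counts in shCHROME a, b and c, against 314, 239 and 392.3 in EV a, b and c, with no overlap (log2 difference 0.85, adjusted p = 0.00239). H19, the imprinted noncoding RNA beside IGF2, rose by 0.84 (adjusted p = 0.000754), and DLK1, an imprinted Notch-like membrane protein gene of hepatoblasts, by 1.10 (adjusted p = 0.0025). In the direction of AFP, the aldo-keto reductase AKR1B10 fell by 0.54 (adjusted p = 5.72e-05) and the trypsin inhibitor SPINK1 by 0.31 (adjusted p = 0.0143). The SPINK1 call was lost without shCHROME b, shCHROME c or EV b, with an adjusted p of 0.0599 to 0.0825. PEG10, the most abundant of the list, had a difference of 0.01 (-0.14 to 0.16), and GPC3, a surface marker of liver cancer named after its value was seen, of 0.07 (-0.13 to 0.28).

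Many of the listed other secreted carriers and binding proteins of plasma fell. Of 19 listed, all of which passed the filter, 9 fell, 0 rose and 10 were not called, against 6.87% of all genes called lower and 3.64% higher. The median log2 difference was -0.24, against 0.01 over all genes. This list was chosen with earlier results of these data known. The shares over all genes are also not matched on level, and many of the listed genes are abundant, so the shares give no test of the list. APOH, TTR, SERPINA1 and TF fell here and are also among the hepatocyte markers that fell, so those lists are not separate observations. The thyroid hormone carriers were among those that fell: SERPINA7, thyroxine-binding globulin, to 3205 ± 167 normalized counts in shCHROME, against 4682 ± 57.5 in EV libraries (log2 difference -0.55, adjusted p = 7.31e-06), and transthyretin, TTR, to 398 ± 44.2, against 656 ± 65.6 in EV libraries (-0.72, adjusted p = 0.000186). AGT, the precursor of angiotensin, fell by 0.33 on the log2 scale and AMBP, which yields alpha-1-microglobulin and bikunin, by 0.25. SERPINA6, the cortisol carrier, fell by 0.41 (adjusted p = 0.00795, and 0.0593 without EV c), haptoglobin, HP, by 0.38 (0.00626, and 0.0577 without shCHROME c) and transferrin, TF, by 0.24 (0.014, and 0.0573 without shCHROME c or 0.0598 without EV c). Without EV c, 5 of the 19 genes were called lower. AHSG, the most abundant of the list, had a difference of -0.06 (95% interval -0.19 to 0.08).

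The partners of the family's ligands were mostly measured at the enzymes. In vitamin D handling, 9 of 11 genes passed the filter. Of these, 3 fell, 0 rose and 6 were not called, against 6.87% of all genes called lower and 3.64% higher. RXRA, among the 3, is also counted as a fall in the list of regulators, so those lists are not separate observations. With so few genes, nothing is read from these counts. CYP24A1, which breaks down active vitamin D, had 4844, 4469 and 4337 normalized counts in shCHROME a, b and c, against 6477, 7123 and 6877 in EV a, b and c (log2 difference -0.59, adjusted p = 5.13e-06). Besides RXRA, the partner of the vitamin D receptor, CYP27A1, a sterol and vitamin D hydroxylase, fell by 0.21 (adjusted p = 0.0362). The CYP27A1 call was lost with libraries scaled to their totals (0.111), with a replicate block (0.0523) and without shCHROME a, shCHROME c, EV a, EV b or EV c, with an adjusted p of 0.0735 to 0.124. The receptor gene VDR itself, named for its role, had 31 reads over the shCHROME and 32 over the EV libraries. PDIA3, the most abundant of the list, had a difference of -0.17 (adjusted p = 0.0613).

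Of 8 albumin receptor and recycling genes, 6 passed the filter and only B2M fell, to 10654 ± 1212 normalized counts in shCHROME, against 13477 ± 485 in EV libraries (log2 difference -0.34, adjusted p = 0.00341). Of all genes tested 10.5% were called, and nothing is read from 1 call in this list or the next. B2M is the light chain of the neonatal Fc receptor, which rescues albumin from degradation, and of MHC class I. FCGRT, its heavy chain, had a difference of -0.02 (-0.15 to 0.11). Among 7 afamin partners and vitamin E genes, 6 passed the filter and TTPA alone was called. TTPA, which returns vitamin E to plasma from hepatocytes, fell to 469 ± 59.2 normalized counts in shCHROME, against 703 ± 77.2 in EV libraries (-0.58, adjusted p = 0.00127). The lipoprotein receptor SCARB1 had a difference of -0.07 (-0.19 to 0.06). Reads of the Wnt secretion gene WLS, named for its role, numbered 1 in each group.

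**Figure D5:**
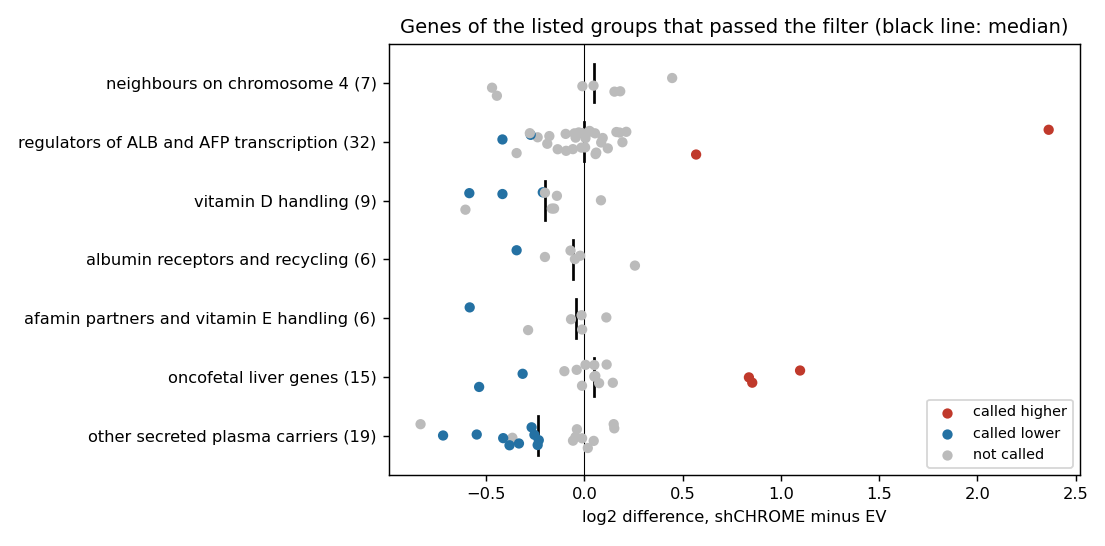
Log2 difference, shCHROME minus EV (horizontal axis), for the listed genes that passed the filter, with the number in brackets; red, blue and grey points were called higher, called lower and not called, and black lines are medians. Secreted carriers lie mostly to the left (median -0.24), the regulators centre on 0.00, and the oncofetal list holds 3 genes called higher and 2 called lower.

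Genes whose profile over the 6 libraries was nearest to a member's were sought among 11274 genes with a mean normalized count of at least 100. Likeness was the root mean square difference over the 6 libraries between log2(value + 1) profiles, each set to 0 at its own EV mean. Nearest to ALB were PIK3IP1 (0.04), FRY (0.04) and SYBU (0.04). Nearest to AFP were the hepatic lipase gene LIPC (0.08), the calpain gene CAPN2 (0.08) and the tight junction gene CLDN4 (0.09). ALB and AFP were 0.39 apart on this measure. Nearest to GC were SETBP1 (0.45), the axon guidance factor gene SEMA3A (0.56) and the Wnt inhibitor gene DKK1 (0.69). GC rests on few reads, so these distances hold its own counting noise and do not show whether a gene moved like it. Nearest to AFM, whose profile is mostly counting noise, was DKK1 at 0.82, followed by CLIP4 (0.83) and LAMA3 (0.91).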

How the data were processed

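RNA of 3 shCHROME and 3 EV libraries was made with a TruSeq RNA kit and sequenced in pairs, per the labels' protocols. STAR 2.5, featureCounts 1.5.2, DESeq2 (given as 3.4) and hg19 are named in the submitters' processing notes; annotation and use of strand are not given in the sources used here. The authors deposited normalized counts (a signal of reads divided by a size factor), with their own mean, log2 fold change and p-values per gene. From 24656 deposited rows, 1288 repeated rows were dropped and 28 gene symbols that had turned into dates were set right by Ensembl ID. Every value was a whole multiple of the value of 1 read within 0.01 reads, so whole reads were recovered. In EV c that value was 0.996, too close to 1 for an automatic test. Replicates differed by more than sampling noise (chi-square per degree of freedom 5.51 to 16.2).

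The test was limma 3.58.1 (trended variance) on log2(value + 1) with group as its single term; low genes were removed with filterByExpr (edgeR 4.0.16), with Benjamini-Hochberg adjustment over 14598 genes; the code was checked on simulated data. Alternatives were edgeR and DESeq2 1.42.0 on recovered reads, a pseudocount of 0.1, other filters and scalings, leaving out each library, and a block on the replicate letters. Members and lists were chosen with earlier results of these data known. Named genes were the members, the neighbours that passed the filter, up to 6 called and the 2 most abundant genes of each list, and the 3 nearest profiles per member; exceptions are stated. Lengths are from GENCODE 29 and promoters from RefSeq, which had entries for 3 of the 4 members by symbol. One listed regulator is not reported here by name.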

Additional observations from a re-analysis of the deposited data

How the results depend on the processing

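Over 16 alternatives the log2 difference of ALB ranged from -0.39 to -0.26 and that of AFP from -0.95 to -0.82, and over 15 that of GC, which was below the filter of 1 CPM, from 1.86 to 2.48. AFM moved to 2.40 with a pseudocount of 0.1 and ranged from 0.65 to 1.90 with 1 library left out; the filter of 1 CPM, the block and the count tests gave it no value. Leaving out 1 library, 245 to 528 genes were called higher and 599 to 1051 lower (532 and 1003 with all libraries), and depth limits GC and AFM, not ALB or AFP. Scaling to library totals gave 936 higher and 702 lower (42.9% lower, against 65.3%), and the block 349 higher; the replicate letters did not pair the libraries (correlations of deviations -0.05, -0.09 and 0.04). The cause was not tested in any of these. With 1 library left out, called regulators were 0 to 2 higher and 1 to 4 lower, albumin receptor genes 0 to 1 higher, oncofetal genes 1 to 2 lower and secreted carriers 5 to 9 lower. DESeq2, which gave NR5A2 no adjusted p, and the filter of 1 CPM, which removed it, each left 1 regulator called higher, and DESeq2 and library totals each called 1 secreted carrier higher. Motif searches with mismatches are not reported here.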
